A study of Mus musculus with 16 samples.

Results

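Gria3, Otoa, Flrt1 and Exoc4 were followed across 16 RNA-seq libraries of mouse muscle stem cells (MuSCs), as 4 of the 24411 genes in the table of estimated counts. They were selected on their counts in uninjured muscle, which differed strongly between TRF2 knockout and control MuSCs, outside the p53 and extracellular matrix genes, so that difference is given here as a description and carries no test. The knockout mice combined floxed TRF2 alleles with Pax7CreERT2, a tamoxifen-inducible Cre driven by Pax7 and therefore active in MuSCs. The controls are labelled wildtype, and whether they carried the Cre or received tamoxifen was not given in the sources used here. Cells came from hindlimb muscle without injury or 3 days after 10 µl of notexin, a snake venom toxin that destroys muscle fibers (3 DPI), and each of the 4 groups had 4 libraries: control uninjured, TRF2 knockout uninjured, control 3 DPI and TRF2 knockout 3 DPI. All cells were sorted as live and negative for CD45, CD31, CD11b and Sca1, and positive for α7-integrin with VCAM or CD34. Each library's description joins a code to a suffix, a combination that no other library shares, but the labels do not say whether it stands for an animal, so p-values measure the spread between libraries. Ages were not used here.

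TRF2, encoded by Terf2, is a shelterin protein that binds and protects telomeres. Gria3 encodes GluA3, a subunit of the AMPA-type glutamate receptors that carry fast excitatory transmission at synapses. Otoa encodes otoancorin, which attaches the acellular gels of the inner ear to the sensory epithelium. Flrt1 encodes a leucine-rich repeat transmembrane protein whose family binds latrophilins and UNC5 receptors and associates with FGF receptors, and Exoc4 encodes SEC8, a subunit of the exocyst, the complex that tethers secretory vesicles to the plasma membrane before fusion. None of the 4 belongs to the usual set of MuSC identity genes.

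The libraries held between 620506 and 1351130 estimated counts each. Replicate 3 of TRF2 knockout 3 DPI stood apart, with 15387 genes detected against at least 19996 in each other library. Levels are given as CPM (a gene's counts relative to the library's total), scaled by the TMM method over all 16 libraries. Terf2 was at 71.5, 94.5, 66.3 and 73.1 CPM in control uninjured replicates 1 to 4 and at 49.7, 46.7, 58.7 and 27.2 CPM in TRF2 knockout uninjured replicates. It was at 35.5, 48.6, 48.2 and 42.8 CPM in control 3 DPI and at 52.6, 21.9, 66.9 and 89.7 CPM in TRF2 knockout 3 DPI. The uninjured groups therefore did not overlap (log2 difference -0.62 ± 0.27 SE, edgeR adjusted p = 0.199), while the 3 DPI groups did (0.44 ± 0.42, adjusted p = 0.755). Counts over the whole gene can include exons outside the deleted part, which the sources used here do not name. Neither the uninjured nor the 3 DPI counts therefore check which libraries carried the deletion. Y-linked transcripts and Xist had counts in all 16 libraries.

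The meaning of the code itself is not stated either. In uninjured muscle the codes JH135 and JH140 held controls and JH134 and JH139 held knockouts, so code and genotype cannot be told apart there. At 3 DPI the code JH133 held 2 libraries of each genotype, and JH140 and JH139 held the remaining control and knockout libraries.

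In GENCODE M21 (GRCm38), Gria3 lies at chrX:41400854-41678601 on the plus strand, with 17 merged exons. Otoa lies at chr7:121081650-121163097 on the plus strand, with 32 merged exons. Exoc4 lies at chr6:33249085-33973979 on the plus strand and spans 724895 bases, with 25 merged exons. Flrt1 lies at chr19:7092001-7105729 on the minus strand, has 1 transcript of 2 exons, and sits within the span of Macrod1 on the opposite strand, with 0 shared exonic bases. Of the 31-base words in their transcripts, 1.49% for Gria3, 0.849% for Otoa, 0.257% for Flrt1 and 0.0795% for Exoc4 also occur in another gene, so little of each sequence could be confused with a copy.

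RefSeq promoter windows (GRCm38.p6, 250 bases before to 50 after the gene start) were at hand for 2 of the 4 genes, and are shown because Otoa and Exoc4 moved in opposite directions between the genotypes. They were searched on both strands for the telomere repeat TTAGGG that TRF2 binds, the E-box CAGCTG recognized by myogenic factors, CCAAT, and 4 runs of GGG spaced by 1 to 7 bases as in a G-quadruplex. Capitals mark the matches, and positions are counted from the RefSeq start. In both genes that start lies inside the GENCODE gene, downstream of the GENCODE start, and farther downstream in Otoa.
Otoa, chr7:121083174-121083473, plus strand: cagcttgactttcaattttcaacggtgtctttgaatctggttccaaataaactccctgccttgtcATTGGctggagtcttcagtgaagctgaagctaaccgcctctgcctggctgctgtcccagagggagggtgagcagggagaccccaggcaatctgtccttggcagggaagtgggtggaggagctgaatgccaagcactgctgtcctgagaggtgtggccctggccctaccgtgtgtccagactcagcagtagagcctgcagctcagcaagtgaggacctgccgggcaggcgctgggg
Exoc4, chr6:33248878-33249177, plus strand: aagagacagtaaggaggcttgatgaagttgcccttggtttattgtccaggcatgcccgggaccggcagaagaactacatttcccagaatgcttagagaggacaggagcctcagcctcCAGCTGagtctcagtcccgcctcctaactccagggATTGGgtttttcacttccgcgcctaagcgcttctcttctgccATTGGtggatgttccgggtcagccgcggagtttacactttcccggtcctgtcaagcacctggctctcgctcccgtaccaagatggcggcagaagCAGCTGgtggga
The Otoa window held 1 CCAAT match, at -185 from the start. The Exoc4 window held CCAAT at -98 and -56 and CAGCTG at -133 and +39. Neither held TTAGGG or the 4 GGG runs. Among 32851 promoter windows of the same length, CCAAT was present in 37.4%, CAGCTG in 16.3%, TTAGGG in 10.6% and the 4 GGG runs in 18.6%. The Otoa window had a GC content of 58.0% with 5 CpG, and the Exoc4 window 56.3% with 13.

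Gria3 and Exoc4 were higher, and Otoa and Flrt1 lower, in uninjured TRF2 knockout MuSCs than in uninjured control MuSCs. The values in this paragraph and the following 3 chose the genes and are descriptive. Gria3 was at 11.6, 21.6, 38.4 and 25.3 CPM in controls and at 107.7, 133.0, 140.3 and 95.3 CPM in knockouts. Every knockout library lay above every control library. The log2 difference was 2.43 ± 0.29 SE, a 5.402-fold higher level of this AMPA receptor subunit, and it was the 4th largest difference in size of 14048 genes tested.

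Exoc4 was at 102.7, 97.2, 90.7 and 89.7 CPM in controls, a narrow range, and at 224.9, 332.4, 257.6 and 250.6 CPM in knockouts. Replicate 2 was the highest knockout library, and the groups did not overlap. On the log2 scale the difference was 1.61 ± 0.20 SE, or 3.05-fold higher.

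Otoa was at 272.5, 200.8, 194.2 and 301.3 CPM in controls and at 48.5, 46.7, 32.9 and 70.8 CPM in knockouts. All control libraries lay above all knockout libraries. This was a log2 difference of -2.15 ± 0.23 SE, a 4.45-fold lower level.

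Flrt1 was the most abundant of the 4 in controls, at 821.1, 668.1, 584.8 and 749.8 CPM, against 237.9, 255.6, 176.0 and 284.6 CPM in knockouts. The groups again did not overlap. The log2 difference was -1.44 ± 0.20 SE, or 2.71-fold lower. Over all 14048 genes, 452 (3.22%) passed the threshold used here (adjusted p under 0.02 and fold over 1.5), 0.584% higher and 2.63% lower (82 and 370 genes, or 176 and 212 when scaled by library size alone), and 12.6% had groups that did not overlap. The difference grew smaller with a gene's mean level over the 16 libraries. Its median on the log2 scale went from 0.37 in the lowest of 4 equal bins of genes to -0.23 in the highest bin. Exoc4 and Flrt1 fall in the highest bin, which begins at 59.9 CPM. Gria3 and Otoa fall in the bin below it, with a median of 0.02.

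**Figure D1:**
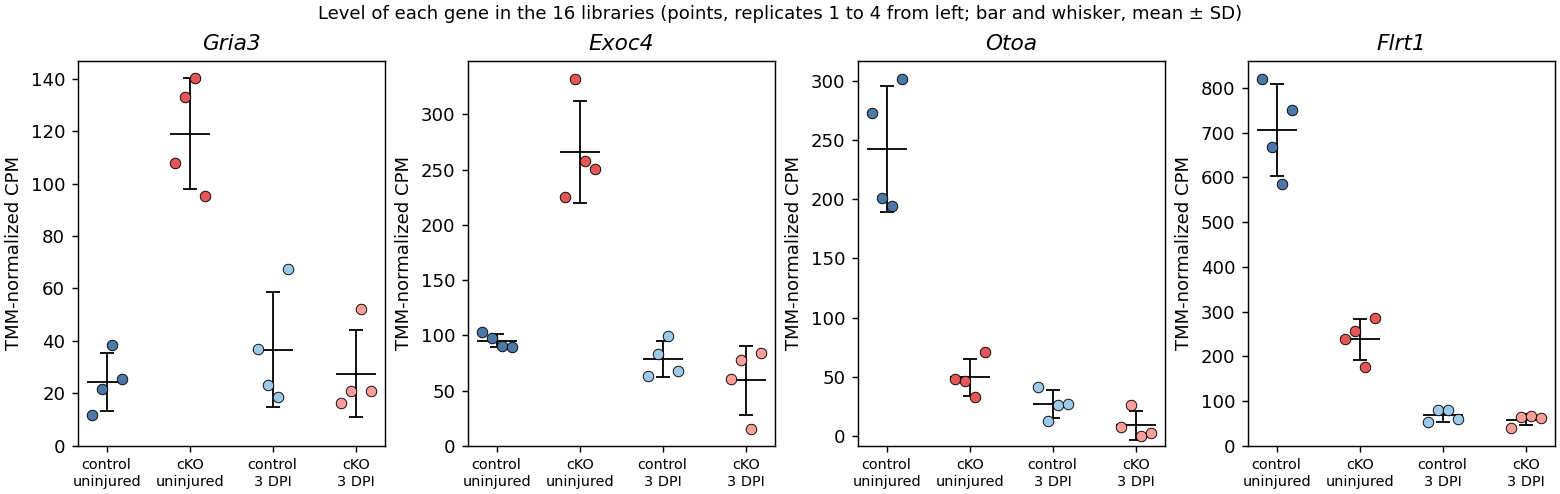
TMM-normalized CPM (vertical axis, linear) of Gria3, Exoc4, Otoa and Flrt1 in the 16 libraries, 1 panel per gene and 1 column per group (cKO, TRF2 knockout). Points are libraries, with replicates 1 to 4 from left to right, and the bar and whiskers give the mean ± SD of 4 libraries. Gria3 and Exoc4 are high in the uninjured knockout column alone, while Otoa and Flrt1 step down from uninjured controls to uninjured knockouts to both 3 DPI groups.

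Per transcript length, in TPM (transcript abundance relative to the library's total) from the abundance-rescaled table, the order in uninjured controls was Flrt1 (243 to 306 TPM), Otoa (125 to 171), Exoc4 (50.03 to 61.0) and Gria3 (5.90 to 18.03), with no overlap between neighbours. In uninjured knockouts Exoc4 was first (183 to 242 TPM). Flrt1 (83.9 to 130 TPM) and Gria3 (65.2 to 123 TPM) overlapped behind it, and Otoa (25.4 to 52.5 TPM) came last. Gria3, lowest of the 4 in controls, was thus above Otoa. At 3 DPI all 4 genes were at most 59.2 TPM in every library of either genotype. In control 3 DPI, Exoc4 (39.3 to 59.2 TPM) was above Flrt1 (21.5 to 31.2 TPM), Gria3 (8.03 to 35.3 TPM) and Otoa (7.92 to 29.6 TPM), which overlapped one another. In TRF2 knockout 3 DPI the 4 ranges overlapped, and Otoa was the lowest by its highest library, at 19.4 TPM. The ratio of count to abundance, set against the median gene of the same library, measures the mean transcript length in use: it stayed between 0.869 and 0.872 for Otoa in the libraries with counts, while for Gria3 it averaged 1.12 ± 0.16 in uninjured controls and 0.873 ± 0.137 in uninjured knockouts (SD, n = 4), with overlapping libraries (0.909 to 1.25 and 0.697 to 1.015). The Gria3 difference in the rescaled table was 2.82 on the log2 scale.

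At 3 DPI, in libraries that had no part in choosing the genes, none of the 4 differed between the genotypes by the threshold, and in each the groups overlapped. No gene of 14559 tested passed (0%), 7.84% had groups without overlap, and 1362 genes had an unadjusted p under 0.05 by edgeR, while DESeq2 called 8 genes and the limma fit 28. Gria3 was at 37.1, 23.3, 18.7 and 67.5 CPM in controls and at 16.4, 20.8, 52.1 and 20.97 CPM in libraries labelled TRF2 knockout. The highest control and the highest knockout library each stood well above the rest of their group. The log2 difference was -0.36 ± 0.55 SE (95% interval -1.55 to 0.83, edgeR adjusted p = 0.860, exact two-sided permutation p = 0.486). Without control replicate 4 the Gria3 estimate turned to 0.10, and without knockout replicate 3 it was -0.90.

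Exoc4 was at 63.3, 82.7, 99.3 and 67.5 CPM in control 3 DPI and at 60.8, 77.3, 14.9 and 83.9 CPM in TRF2 knockout 3 DPI. Knockout replicate 3, the library with the fewest genes detected, held the lowest value. Exoc4 had a log2 difference of -0.36 ± 0.43 SE (95% interval -1.30 to 0.57, adjusted p = 0.815, exact permutation p = 0.371), and -0.06 without that library.

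Otoa was at 41.7, 12.6, 26.6 and 27.2 CPM in control 3 DPI and at 8.2, 26.5, 0 and 2.3 CPM in TRF2 knockout 3 DPI. Of the knockout libraries 3 lay below every control, and replicate 2 lay among them. The 0 in replicate 3 allows a level of up to 3.57 CPM (3 counts in that library, counting error only). The log2 difference was -1.48 ± 0.90 SE (95% interval -3.42 to 0.46, edgeR adjusted p = 0.628, exact permutation p = 0.0571). Otoa depended on the libraries, at -2.86 without knockout replicate 2 and -1.08 without knockout replicate 3. Within code JH133, the 2 libraries a genotype gave -0.59, and the JH139 and JH140 libraries gave -4.35.

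Flrt1 was at 52.5, 80.7, 79.7 and 59.2 CPM in control 3 DPI and at 39.7, 64.6, 65.7 and 62.9 CPM in TRF2 knockout 3 DPI. Knockout replicate 1 was the lowest of all 16 libraries, and the other 3 knockouts fell within the control range. Flrt1 had a log2 difference of -0.18 ± 0.32 SE (95% interval -0.86 to 0.51, adjusted p = 0.887, exact permutation p = 0.400). With 4 libraries against 4, the smallest exact two-sided p is 0.0286.

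**Figure D2:**
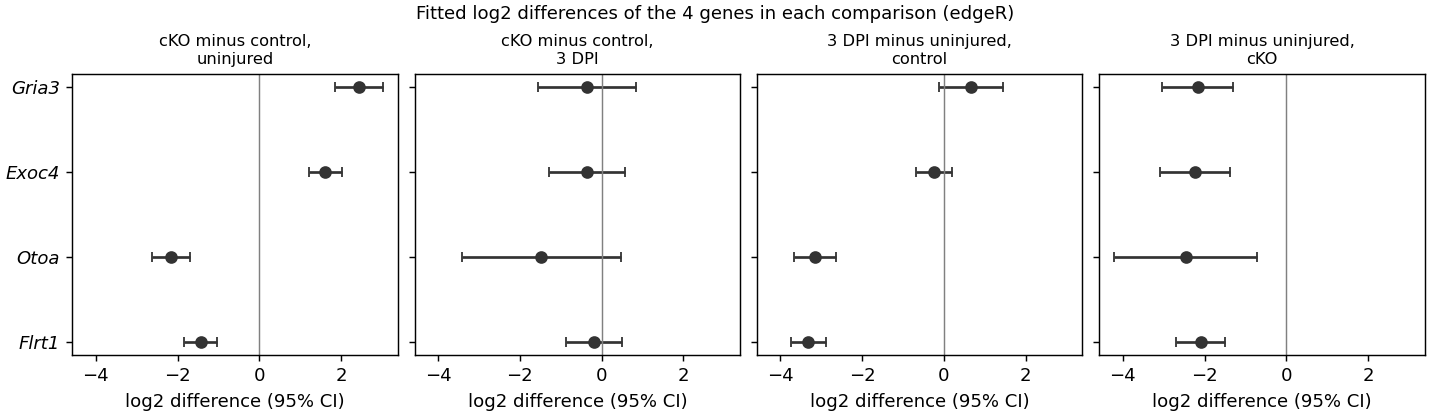
Fitted log2 differences (horizontal axis) of the 4 genes in the 4 comparisons, 1 panel each, as points with 95% intervals from edgeR (cKO, TRF2 knockout). In the 3 DPI genotype panel all 4 intervals reach across 0, with Otoa the widest at -3.42 to 0.46. The other 3 panels use libraries that chose the genes and are descriptive.

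Between uninjured muscle and 3 DPI, Otoa and Flrt1 were far lower after injury in controls, and all 4 genes were lower after injury in knockouts. These comparisons share the uninjured libraries with the choice of genes, so the differences of the 4 are given without a test. In controls the log2 difference was -3.16 ± 0.25 SE for Otoa, from a mean of 242.2 to 27.0 CPM, and -3.32 ± 0.21 for Flrt1, from 705.9 to 68.0 CPM. Neither gene's groups overlapped, as for 24.3% of the 15356 genes tested, of which 20.2% were called (10.8% higher, 9.46% lower). Gria3 differed by 0.66 ± 0.39 and Exoc4 by -0.24 ± 0.22 in controls, and the groups overlapped in both.

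In knockouts the log2 differences after injury were -2.17 ± 0.41 SE for Gria3, -2.46 ± 0.81 for Otoa, -2.09 ± 0.28 for Flrt1 and -2.23 ± 0.40 for Exoc4. Otoa depended on the libraries here too, from -3.79 to -2.04 with 1 left out. For each of the 4 genes the uninjured and 3 DPI knockout libraries did not overlap, as for 13.6% of 14578 genes. The genotype difference at 3 DPI minus that in uninjured muscle was -2.73 ± 0.61 for Gria3, -1.89 ± 0.45 for Exoc4, 1.33 ± 0.33 for Flrt1 and 0.79 ± 0.76 for Otoa. With 1 library left out, the Otoa value ranged from -0.68 to 1.12 and so changed sign. Over 16822 genes, 3 (0.0178%) passed for this difference of differences.

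The sorted cells themselves differed between these groups by their markers. The summed level of 12 MuSC markers, among them Pax7, Myf5, Calcr and Vcam1, ranged from 5194 to 9164 CPM in control uninjured, 3585 to 4868 in TRF2 knockout uninjured, 1239 to 1616 in control 3 DPI and 633 to 1017 in TRF2 knockout 3 DPI. Of the 12, 8 fell in uninjured knockouts, where 2.63% of all genes were called lower, and all 12 fell after injury in controls, where 9.46% were. The 16 macrophage and leukocyte markers summed to 98.5 to 146 CPM in control uninjured and 172 to 209 in knockout uninjured, and to 5555 to 7137 and 2398 to 6712 at 3 DPI. After injury in controls, 12 of the 13 that were tested rose, and only S100a9 was at 0 in all libraries of a group, TRF2 knockout 3 DPI. Flrt1 and Otoa were ordered over the groups as the MuSC markers were. In bulk RNA fewer MuSCs and less RNA per MuSC cannot be told apart, and the part of cell composition in these results was not tested. The 18 Schwann and neural markers, of interest for a synaptic gene such as Gria3, summed to 808 to 925 CPM in control uninjured and 853 to 1015 in knockout uninjured, with none of 16 tested called by edgeR, 13 estimates above 0, 8 with an unadjusted p under 0.05 and a list median of 0.57 against 0.06 for all genes. Over all 14048 genes tested, 2736 had an unadjusted p under 0.05 in that comparison by edgeR. The part of the Schwann and neural markers in the Gria3 level was not tested. They summed to 702 to 884 CPM in control 3 DPI and 839 to 925 CPM in knockout 3 DPI. Of the other lists, the 14 fibroadipogenic and tendon markers summed to 4914 to 7603 CPM in control uninjured and 1516 to 2880 in knockout uninjured, where 1 rose and 2 fell of 9 tested, against 0.584% and 2.63% of all genes. The genes that fell were Col3a1 (-2.12) and Dpt (-1.65), while Dcn rose (1.20) and 7 of the 9 estimates were above 0, with a list median of 0.32. The 15 endothelial and mural markers (1330 to 1719 against 1051 to 2138 CPM) and the 14 myofiber markers (843 to 1023 against 929 to 1227 CPM) had 1 gene each that rose in the same comparison, of 14 and 8 tested. At 3 DPI these 3 lists summed to 4008 to 6094, 1244 to 1698 and 1339 to 1677 CPM in controls. In TRF2 knockout 3 DPI they summed to 3245 to 6467, 1351 to 1633 and 1092 to 2007 CPM. Of 14 fibroadipogenic markers tested after injury in controls, 6 rose and 2 fell, with a list median of 1.30 against 0.07 for all genes, 3 of 11 myofiber markers rose, and 1 endothelial and mural marker rose and 2 fell of 15, where 10.8% of all genes were called higher and 9.46% lower. The Schwann and neural list had 2 that rose and 1 that fell of 16.

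**Figure D3:**
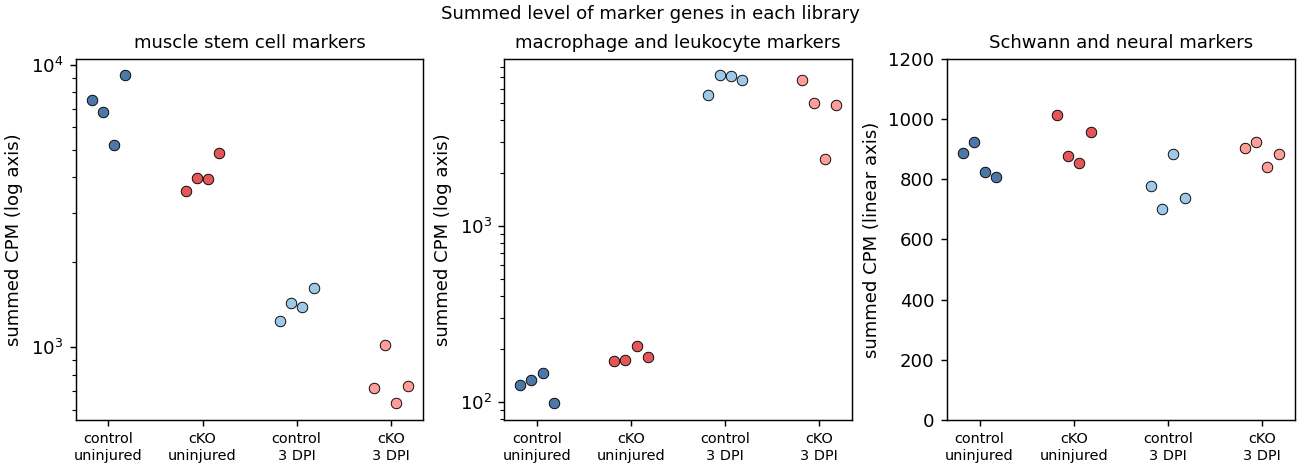
Summed CPM of the MuSC, macrophage and leukocyte, and Schwann and neural marker lists in each library (points, replicates 1 to 4 from left to right in each group; cKO, TRF2 knockout), on log axes in the first and second panels and a linear axis in the third. MuSC markers are highest in control uninjured libraries, from 5194 to 9164 CPM, and leukocyte markers are highest at 3 DPI.

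None of the other 3 AMPA receptor subunits passed the test in either genotype comparison. Gria2, which renders the receptor impermeable to calcium, was at 16.1 to 30.2 CPM in controls and 24.9 to 57.3 in knockouts, with a log2 difference of 0.99 (95% interval 0.20 to 1.77, edgeR adjusted p = 0.138). The difference was -0.22 (-0.80 to 0.37, adjusted p = 0.715) for Gria1 and 0.26 (-0.53 to 1.05, adjusted p = 0.750) for Gria4. At 3 DPI, Gria1 differed by 1.33 (0.08 to 2.58, adjusted p = 0.522) and Gria4 by 1.04 ± 0.48 SE (adjusted p = 0.532), or 0.42 without knockout replicate 3. Within code JH133 the Gria1 value was 0.27, and within JH139 and JH140 it was 2.30. After injury in controls, Gria1 fell by 1.42 (adjusted p = 0.00101), a call lost with the limma fit, all 16 libraries in 1 fit and the rescaled table.

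Among 24 auxiliary and scaffold proteins of AMPA receptors, none of 19 tested was called in uninjured cells and none of 18 at 3 DPI. Among 14 kainate, NMDA and delta receptor genes, Grik3, a kainate receptor subunit, rose in uninjured knockouts, from 51.2 to 77.0 CPM in controls to 96.7 to 137 CPM (log2 difference 1.05 ± 0.23 SE, adjusted p = 0.00235). The call held in 17 of 19 alternatives. The other 13 were not called, against 0.584% called higher of all genes, and the list median was 0.73 against 0.06. At 3 DPI none of the 14 was called. After injury in controls 1 of the 14 was called, Grik5, which fell by 1.52 (adjusted p = 2.9e-05). Of 19 tested auxiliary and scaffold genes 2 were called, Adarb1, the enzyme that edits glutamate receptor transcripts, which fell by 1.12, and Nsf, an ATPase of membrane fusion, which rose by 1.27. Over all genes 10.8% were called higher and 9.46% lower there, so neither list's count was above the share for all genes.

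Otog, which encodes otogelin of the inner ear gels, was the only gene called among 7 tested relatives of otoancorin and inner ear matrix genes, against 3.22% of all genes (0.584% higher). It rose in uninjured knockouts, opposite to Otoa, from 24.4 to 53.5 CPM in controls to 54.5 to 92.3 CPM (log2 difference 1.10 ± 0.29 SE, adjusted p = 0.0144). The call held in 9 of 19 alternatives. Leaving out any of control replicates 1, 2 and 4 or knockout replicates 1, 2 and 3 ended it, with log2 differences of 0.90 to 1.28 over the libraries left out. None of 8 tested genes of this list was called at 3 DPI or after injury in controls.

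The 2 paralogs of Flrt1 were not called in either genotype comparison by edgeR. Flrt2 was at 26.8 to 62.8 CPM in control uninjured and 35.8 to 58.6 in knockout uninjured (log2 difference 0.29, 95% interval -0.35 to 0.93, adjusted p = 0.646). Flrt3 was at 3.57 to 41.9 and 14.98 to 50.1 CPM (0.74, -0.30 to 1.79, adjusted p = 0.440), or 1.45 without control replicate 3. At 3 DPI the differences were -0.12 (adjusted p = 0.953) for Flrt2 and 0.04 (adjusted p = 0.985) for Flrt3, and after injury in controls edgeR called neither. There Flrt2 passed with the limma fit (0.69, adjusted p = 0.0195) and Flrt3 without control uninjured replicate 3 (1.42, adjusted p = 0.0151).

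Of 21 FLRT receptors and partners (latrophilins, UNC5, FGF receptors, ROBO and SLIT, teneurins), 1 rose and 2 fell in uninjured knockouts, against 0.584% called higher and 2.63% called lower of all genes, and the list median was 0.29 against 0.06. Fgfr1 fell from 762 to 1360 CPM in controls to 488 to 590 CPM (log2 difference -0.79 ± 0.19 SE, adjusted p = 0.00786). Fgfr4 fell from 766 to 972 CPM to 427 to 496 CPM (-0.78 ± 0.18, adjusted p = 0.00632). Each of these FGF receptor calls held in 10 of 19 alternatives. For Fgfr1 it ended without control replicates 2 or 4 or knockout replicates 2 or 3, with values from -0.93 to -0.67 over the libraries left out. For Fgfr4 it ended without control replicates 1, 2 or 4 or knockout replicate 3, with values from -0.84 to -0.75. Slit3, a secreted guidance ligand, was at 13.95 to 26.3 CPM in controls and 7.16 to 78.1 CPM in knockouts, where replicate 3 was the low library (1.57 ± 0.41, adjusted p = 0.0173). The Slit3 call held in 5 of 17 alternatives, among them the fit without that library, and any other library left out ended it, with values from 1.25 to 1.90.

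At 3 DPI none of the 21 was called. Fgfr4 was at 114 to 133 CPM in controls and 1.24 to 54.2 CPM in knockouts, without overlap (-2.17 ± 0.59 SE, adjusted p = 0.452), and it passed without knockout replicate 3 (-1.79, adjusted p = 0.00732). After injury in controls 6 of the 21 fell and 2 rose, against 9.46% called lower and 10.8% higher of all genes, so the count that rose was near that for all genes. Fgfr1 fell by 2.35, Fgfr4 by 2.76, Tenm4 by 2.52, Robo1 by 1.64, Tenm3 by 0.81 and Adgrl1 by 0.69, while Slit3 rose by 1.38 and Adgrl2 by 0.86. The Adgrl1 call held in 8 of 18 alternatives and ended without control uninjured replicates 1 or 2 or control 3 DPI replicates 1, 2 or 4, with values from -0.83 to -0.54 over the libraries left out. The Adgrl2 call held in 7 of 18 and ended without control uninjured replicates 1, 2 or 4 or control 3 DPI replicates 1, 2 or 3, with values from 0.69 to 0.98.

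None of the other 8 exocyst subunits was called by edgeR in uninjured knockouts, and 7 of the 8 estimates were below 0 (3 of the 8 when scaled by library size alone), with a list median of -0.17. Exoc7, the EXO70 subunit that binds membrane lipids, had a log2 difference of -0.77 (95% interval -1.33 to -0.20, adjusted p = 0.109), from 53.1 to 96.5 CPM in controls to 32.0 to 74.9 CPM, and was called in 1 of 19 alternatives, the limma fit (-1.08, adjusted p = 0.0155). Exoc3, Exoc2 and Exoc1, which assemble with Exoc4 in a subcomplex, had differences of -0.17, -0.02 and -0.31, with intervals that end at 0.38, 0.60 and 0.32. Exoc6b, the highest of the 8 by mean CPM in both uninjured groups, was at 88.2 to 138 CPM and 98.8 to 114 CPM (0.03, -0.40 to 0.47, adjusted p = 0.948). In TPM, Exoc7 was above it in uninjured controls, with a mean of 59.3 against 47.1. At 3 DPI none of the 8 was called, with estimates from -0.96 for Exoc5 to 0.37 for Exoc6. The Exoc5 value was -1.65 without knockout replicate 1, 0.00355 within code JH133 and -2.26 within JH139 and JH140. By edgeR none of the 8 was called after injury in controls. Exoc6b had the lowest adjusted p (-0.68 ± 0.23 SE, adjusted p = 0.0241) and was called in 5 of 18 alternatives, among them those without control uninjured replicate 2 (-0.83) or control 3 DPI replicate 3 (-0.91). Exoc6 was called with the limma fit (0.88, adjusted p = 0.00769).

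Among the 18 of 20 exocyst regulators that were in the table, none was called in either genotype comparison. After injury in controls 8 rose and 1 fell, against 10.8% called higher and 9.46% called lower of all genes, with a list median of 0.69 against 0.07. Those that rose were the GTPases Rala, Ralb, Cdc42, Arf6, Rab8b and Rab11a, the RAB11 effector Rab11fip5 and the SNARE protein Snap23, and Vamp2 fell by 1.73. Calls held in 10 of 18 alternatives for Rab11a, 12 for Ralb, 13 for Arf6 and 14 for Rala, and in at least 17 for the other 5. Leaving out control uninjured replicate 2 ended those of Rab11a (0.80), Ralb (0.71) and Rala (1.01), and leaving out replicate 4 those of Rab11a (0.81) and Ralb (0.87). The Arf6 call ended without control uninjured replicate 3 (0.61). Of the control 3 DPI libraries, replicate 2 decided Rab11a (0.81 without it), replicate 3 Rab11a (0.83) and Ralb (0.91), and replicate 4 Ralb (0.88), Arf6 (0.62) and Rala (1.07). Exoc4 itself differed by -0.24 in that comparison.

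**Figure D4:**
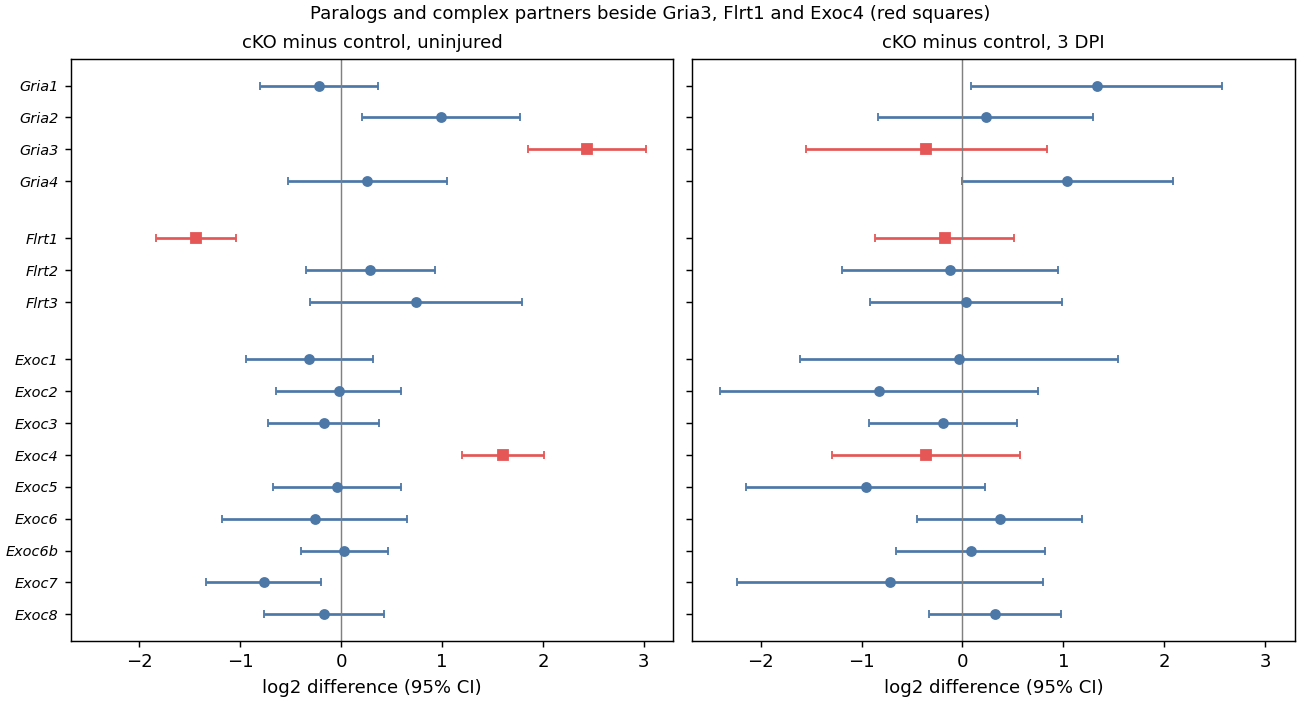
Log2 differences between TRF2 knockout (cKO) and control (horizontal axis, points with 95% intervals from edgeR) for AMPA receptor subunits, the FLRT family and exocyst subunits, in uninjured muscle and at 3 DPI. Red squares mark Gria3, Flrt1 and Exoc4. In uninjured muscle these lie at 2.43, -1.44 and 1.61, the values for which they were chosen, and at 3 DPI they lie at -0.36, -0.18 and -0.36.

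Neighbouring genes were read beside the 4. In uninjured muscle the log2 difference was -0.36 (adjusted p = 0.680) for Macrod1, which encloses Flrt1, -0.17 (0.694) for Thoc2 beside Gria3, -0.57 (0.438) for Mettl9 beside Otoa and -0.64 (0.384) for Chchd3 beside Exoc4. None of the tested neighbours was called in either genotype comparison by edgeR. Lrguk, on the other side of Exoc4, was too low for the uninjured fit. It was at 8.04, 9.90, 3.49 and 4.87 CPM in controls and at 18.9, 5.19, 48.7 and 28.6 CPM in knockouts, where 3 of 4 knockout libraries lay above all controls.

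Over the 16 libraries, Otoa and Flrt1 had similar profiles (Pearson r of log2 CPM 0.85), and Gria3 and Exoc4 less so (0.52). The other 4 pairs lay between -0.05 and 0.47. These values and the following ones are descriptions over libraries that share groups and depth. Among those libraries are the uninjured ones that chose the genes. Of 16818 genes compared, those most like Gria3 were Arpp21 (0.89), Aen (0.88) and Neb (0.84). Those most like Exoc4 were Rnf169 (0.96), Phlda3 (0.95) and Per2 (0.95). For Otoa they were Tcf4 (0.97), Pdlim4 (0.96) and Edn3 (0.96), and for Flrt1 they included Abca5 (0.98) and Dtx4 (0.97). Phlda3, like Exoc4, was high in uninjured knockouts alone, at 170 to 247 CPM against 42.3 to 69.2 in uninjured controls, and Abca5 was at 81.0 to 92.6 against 167 to 180 CPM.

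**Figure D5:**
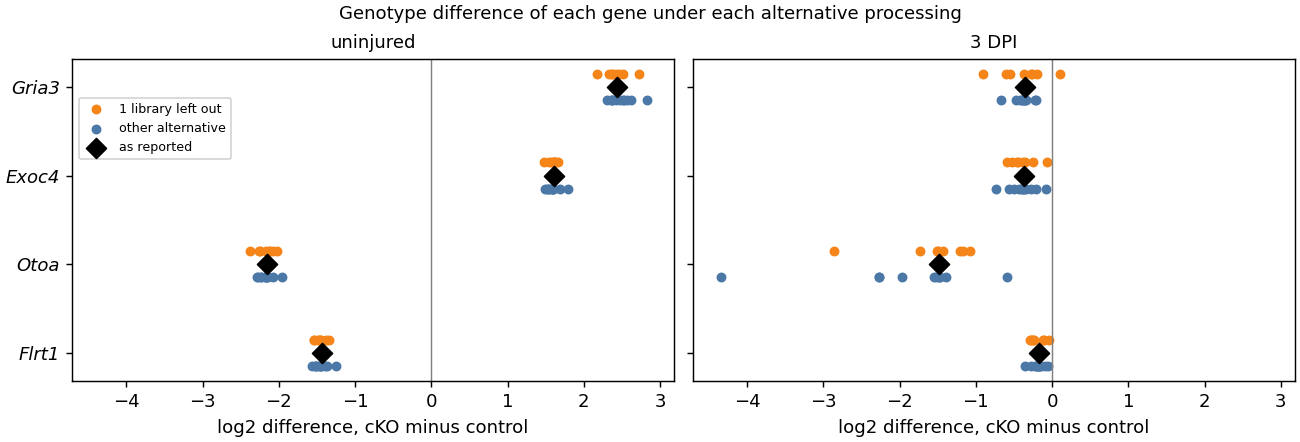
Genotype difference on the log2 scale (horizontal axis) of each of the 4 genes as reported (diamond), with 1 library left out (orange) and under the other alternatives (blue), in uninjured muscle and at 3 DPI. The uninjured panel shows the values that chose the genes and is descriptive, with Gria3 from 2.17 to 2.82 and Flrt1 from -1.56 to -1.25. At 3 DPI, Gria3 crosses 0 when control replicate 4 is left out, and Otoa spreads from -4.35 to -0.59.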

How the data were processed

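RNA from sorted MuSCs was depleted of rRNA and made into stranded, random-primed CORALL libraries. The authors processed the reads on GRCm38 with Trim Galore 0.6.7, STAR 2.6.1d and Salmon 1.5.2, as the submitters' processing notes give them (the study's methods name a later STAR release), which gave the deposited estimated counts per gene and a second deposited table of estimated counts rescaled by transcript abundance. How the molecular identifiers of the kit were used in counting was not given in the sources used here. For each comparison the estimated counts were rounded, genes were filtered with filterByExpr, scaled by TMM and tested by the robust quasi-likelihood test of edgeR 4.0.16 (R 4.3.3) with Benjamini-Hochberg adjustment over all genes tested. Calls required an adjusted p under 0.02, the study's threshold, with a fold over 1.5. All 4 genes passed the filter in every comparison. Intervals are 95% and counting error is part of the spread between libraries. CPM are without pseudocount; likeness used log2 CPM with a prior count of 2, and exact permutation tests compared group means of log2(CPM + 1). TPM were computed from the second table. Library totals of 620506 to 1351130 limit low genes. Alternatives were DESeq2 1.42.0, limma 3.58.1 and voom, other scaling and filters, 1 fit of all libraries, the replicate block, the rescaled table, description codes and each library left out. The 4 genes and all gene lists were chosen with earlier results of these data known. Named were the 4 genes, Terf2, AMPA, FLRT and exocyst family members, listed genes called in a genotype comparison or after injury in controls, overlapping and flanking genes, and the 3 most similar profiles for each gene, of which 1 is not reported here. The fitting was tested on simulated data. Of the gene names, 95.8% matched GENCODE M21.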

Additional observations from a re-analysis of the deposited data

Results flagged for a closer look

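Among 68 groups of 4 libraries examined, 7 had a library whose gap to the nearest other exceeded 0.829 of the group's range, Dixon's 95% critical value, and chance flags about 1 in 20 groups. For Gria3, TRF2 knockout 3 DPI replicate 3 was at 52.1 CPM against 16.4 to 20.97 CPM in the others. For Gria4 the same library was at 104.1 CPM against 31.5 to 38.1 CPM. It is the library with the fewest genes detected, and its part in these values was not tested. For Flrt1, TRF2 knockout 3 DPI replicate 1 was at 39.7 CPM against 62.9 to 65.7 CPM. For Flrt3, control 3 DPI replicate 4 was at 21.4 CPM against 33.97 to 34.4 CPM. For Gria2, control uninjured replicate 3 was at 30.2 CPM against 16.1 to 16.6 CPM. For Exoc7, control uninjured replicate 2 was at 53.1 CPM against 93.6 to 96.5 CPM, and TRF2 knockout uninjured replicate 4 was at 74.9 CPM against 32.0 to 38.6 CPM.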

How the results depend on the processing

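At 3 DPI none of the 4 genes passed in any alternative. The uninjured values, which chose the genes and carry no test, ranged over 19 alternatives from 2.17 to 2.82 for Gria3, 1.48 to 1.79 for Exoc4, -2.37 to -1.96 for Otoa and -1.56 to -1.25 for Flrt1. Leaving out 1 library moved Gria3 at 3 DPI between -0.90 (without knockout replicate 3) and 0.10 (without control replicate 4), where it reversed. The number of genes called between the genotypes in uninjured muscle was 299 with the limma fit, 82 in 1 fit of all 16 libraries, 17 with the rescaled table, 200 within codes JH134 and JH135, and 259 to 574 with 1 library left out, against 452. At 3 DPI it was 8 with DESeq2, 28 with limma, 3 in the fit of all 16, 1 within code JH133, and 0 to 16 with 1 library left out, the highest without knockout replicate 3. After injury in controls it was 1595 in the fit of all 16 against 3104. After injury in knockouts it was 983 with DESeq2, 1020 with limma, 1204 in the fit of all 16, 283 with the rescaled table and 358 to 1316 with 1 library left out, the highest again without knockout 3 DPI replicate 3, against 589. For the difference of differences it was 26 with DESeq2, 123 with limma, 8 with at least 10 counts in every library, 1 with the rescaled table and 1 to 13 with 1 library left out, against 3. The causes were not tested. Scaling by library size alone moved the median of all genes from 0.06 to 0.24 on the log2 scale in uninjured muscle, with 176 genes higher and 212 lower there against 82 and 370, and limma gave 157 and 142. Same-numbered libraries correlated between -0.11 and 0.11, so the numbers were not taken as pairs; with the replicate block 364 genes were called after injury in knockouts and 1 for the difference of differences, and at 3 DPI none of the 4 genes passed with it. Low counts limit Otoa at 3 DPI, with 0 to 23 counts per knockout library.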
